A study of Homo sapiens with 5 samples.

Results

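The chromosome 19 zinc finger genes are taken here as the protein-coding genes of that chromosome whose symbol is ZNF followed by a number. The GENCODE 44 annotation lifted to GRCh37 (hg19, the build of the deposited data) holds 240 such genes, and 236 of them had a row among the 30476 gene identifiers of the count table. ZNF222, ZNF229, ZNF582 and ZNF8 were not analysed here. The samples were 5 RNA-seq libraries of TOV21G, a line from an ovarian clear cell carcinoma that carries ARID1A mutations. One library came from parental cells without drug. The other 4 came from cells that had become resistant to GSK126, a small-molecule inhibitor of the histone methyltransferase EZH2 (EZH2 inhibitor-resistant, EIR). Resistance was selected by raising GSK126 stepwise from 5 to 10, 15 and 20 μM, after which clones were picked. EIR clone 3 and EIR clone 4 were each sequenced once untreated and once with GSK126. Each clone descends from picked cells, so what is particular to a clone and what comes with resistance cannot be told apart within it. All 5 libraries share the ARID1A-mutated background. Nothing in the labels says that the libraries came from separate cultures, so p-values measure the spread between these libraries, which may be technical. The parental group held 1 library, so the spread in every comparison with parental cells came from the EIR libraries, and an exact permutation test of 1 library against 4 could not give a two-sided p below 0.2.

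Most zinc finger genes of chromosome 19 encode proteins in which a KRAB domain is followed by an array of C2H2 zinc fingers. The fingers read DNA, often inside transposable elements, and the KRAB domain recruits the corepressor TRIM28, which brings histone methyltransferases and heterochromatin proteins to the site. The genes arose by repeated tandem duplication and lie in clusters, and many of the clusters carry repressive chromatin over their own coding exons.

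In the translated coding sequences a KRAB A box was found in 203 of the 236 members and not in 32, and ZNF274 could not be assigned from its translated sequence. The members carried 1 to 36 C2H2 fingers with a median of 12. With a gap of over 1 Mb between neighbouring members as the border, they fell into 16 clusters. Of these, 9 clusters with at least 5 members held 227 genes, and they are numbered 1 to 9 from the short arm to the long arm. Clusters 1 to 4 lie on the p arm and clusters 5 to 9 on the q arm. Expression was broad. An average of at least 100 normalized counts (counts divided by the DESeq2 size factor of the library) was reached by 173 members, 208 had a mean of at least 10, and 28 lay below 10. In 14 members every library had 3 or fewer counts, among them ZNF560, ZNF257, ZNF729, ZNF99, ZNF536 and ZNF671.

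Members took 0.309% of all counts in the parental library, 0.406% and 0.421% in untreated and GSK126-treated clone 3, and 0.448% and 0.437% in untreated and GSK126-treated clone 4. The mean over the EIR libraries was 0.428% ± 0.0184 (SD, n = 4), and all 4 lay above the parental value. In bulk RNA, more cells that express a gene and more RNA per cell cannot be told apart. Library totals ranged from 25479238 to 30764963 counts. PAX8, KRT8 and KRT18, markers of the Müllerian epithelium from which these tumours arise, had 3031 to 4491, 4331 to 8176 and 11896 to 18015 counts in the 5 libraries. Other markers on the same list moved. KRT7 had 81 counts in parental cells and from 150 to 199 in the EIR libraries, and NAPSA had 2 in parental cells, 53 and 50 in clone 3 and 6 and 4 in clone 4. EPCAM, a general epithelial marker, had 398 counts in parental cells, 426 and 498 in clone 3, and 0 and 1 in clone 4.

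Per kilobase of the longest annotated transcript, ZNF146 had the highest level of all members. ZNF146 encodes a protein made almost only of zinc fingers, without a KRAB domain, and lies near the start of cluster 6. Its level was 816.4 normalized counts per kilobase in parental cells, 1628.7 and 1948.0 in untreated and treated clone 3, and 1669.1 and 1203.2 in untreated and treated clone 4. All 4 EIR libraries were above the parental library. ZNF121, ZNF428 and ZNF724 followed, with means over the 5 libraries of 686.5, 551.7 and 484.3 normalized counts per kilobase. The median member had 83.7.

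The proximal promoters of 206 members were matched by symbol in the RefSeq promoter table (GRCh38.p14, 250 bases before to 50 after each start). They held a median of 20 CG dinucleotides, the site of DNA methylation in mammals, against 14 over the 35116 promoters of the table, and 96.0% of all promoters held at least 1. Shown are the promoters of the member that went from 1 count to over 100 in EIR cells (ZNF556, chr19:2867085-2867384, plus strand), of the member with the next largest rise (ZNF682, chr19:20039456-20039755, minus strand), and of the members that were low in clone 4 alone among the 5 libraries (ZNF181, chr19:34733993-34734292, and ZNF234, chr19:44141304-44141603, both plus strand). Each runs 5′ to 3′ on the strand of the gene, with CG in capitals.
ZNF556: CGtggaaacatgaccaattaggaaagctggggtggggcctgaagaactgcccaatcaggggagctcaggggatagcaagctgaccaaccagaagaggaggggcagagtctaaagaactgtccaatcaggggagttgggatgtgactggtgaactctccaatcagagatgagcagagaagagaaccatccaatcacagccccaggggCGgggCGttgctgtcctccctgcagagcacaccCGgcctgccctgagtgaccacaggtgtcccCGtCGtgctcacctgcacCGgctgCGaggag
ZNF682: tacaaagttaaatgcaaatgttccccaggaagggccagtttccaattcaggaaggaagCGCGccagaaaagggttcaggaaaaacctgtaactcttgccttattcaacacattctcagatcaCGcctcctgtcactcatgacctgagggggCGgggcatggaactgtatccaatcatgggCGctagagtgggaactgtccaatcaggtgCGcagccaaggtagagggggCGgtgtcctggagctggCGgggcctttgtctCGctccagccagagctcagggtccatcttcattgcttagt
ZNF181: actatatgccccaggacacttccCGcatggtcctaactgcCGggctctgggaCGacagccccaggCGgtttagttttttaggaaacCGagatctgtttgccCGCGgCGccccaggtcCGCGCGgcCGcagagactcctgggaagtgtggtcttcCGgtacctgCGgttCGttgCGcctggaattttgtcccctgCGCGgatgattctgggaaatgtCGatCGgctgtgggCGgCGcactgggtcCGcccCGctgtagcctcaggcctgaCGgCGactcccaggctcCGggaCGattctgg
ZNF234: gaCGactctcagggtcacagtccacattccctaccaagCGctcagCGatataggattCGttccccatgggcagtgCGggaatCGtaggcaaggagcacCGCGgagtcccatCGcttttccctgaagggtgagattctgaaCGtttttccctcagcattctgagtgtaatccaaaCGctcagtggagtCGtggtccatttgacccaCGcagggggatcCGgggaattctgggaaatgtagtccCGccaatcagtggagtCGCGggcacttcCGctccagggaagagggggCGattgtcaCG
ZNF556 and ZNF682 held 8 and 9 CG, and ZNF181 and ZNF234 held 28 and 20. Other members described below went both ways. Of those that rose, ZNF43 and ZNF100 held 12 and 10 and ZNF507 held 28. Of those that fell in EIR cells, ZNF709 and ZNF555 held 27 and 25 and ZNF491 held 9. No methylation was measured in these cells here, so the counts describe the sequence only.

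In EIR cells against parental cells, far more members were called higher than lower. At an adjusted p under 0.05 (DESeq2 Wald test, Benjamini-Hochberg over all genes), 47 of the 208 members tested were higher and 4 were lower, which is 22.6% and 1.92%. The 4 EIR libraries come from 2 clones, each sequenced in both treatments, and this fit took them as 4 replicates. With the libraries of each clone summed, 18 members were called higher and 0 lower. The share of all genes called is not given for that fit or for fits with a library left out. Those counts therefore have no background of their own. Over all genes tested the comparison of the 4 libraries called 12.4% higher and 13.2% lower. Of the 203 ZNF genes of other chromosomes tested, it called 17.7% higher and 10.3% lower. The ZNF genes elsewhere thus also exceeded all genes in higher calls, and the members had fewer lower calls. The 4 EIR libraries were all above the parental library in 105 of the 173 members averaging at least 100 normalized counts (60.7%, against 31.9% of all 11564 genes at that level) and all below it in 27 (15.6%, against 40.6%). The median log2 fold change of these 173 members was 0.33, and 130 of them had a positive value. Over all genes at that level the median was -0.06, over the 554 other protein-coding genes of chromosome 19 it was -0.42, and over the 180 ZNF genes of other chromosomes it was 0.06. After removal of a GC content trend (described next) the other genes of the chromosome had a median of -0.02 to 0.00 and the ZNF genes elsewhere 0.11 to 0.18, below the 0.25 to 0.34 of the members. Without treated clone 3, 30 members were called higher and 2 lower.

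**Figure D1:**
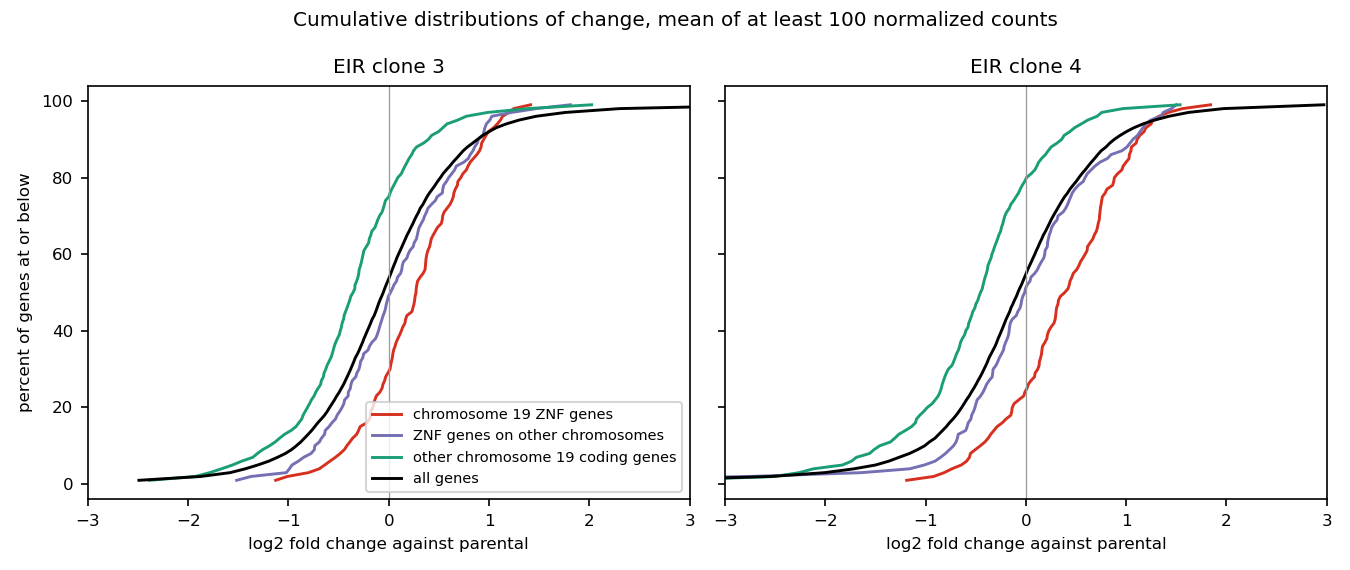
Cumulative share of genes (percentiles 1 to 99, vertical axis) at or below each log2 fold change against parental cells (horizontal axis) for EIR clone 3 and EIR clone 4, for the 173 chromosome 19 ZNF genes, 180 ZNF genes of other chromosomes, 554 other coding genes of chromosome 19 and all 11564 genes averaging at least 100 normalized counts. In both clones the curve of the chromosome 19 ZNF genes lies to the right of the others over most of its length and that of the other chromosome 19 genes to the left.

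GC content moved with this comparison. Among genes that are not members, the median log2 fold change in EIR cells fell from 0.53 at a transcript GC content under 40% to -0.31 at 50% and over, and the members have a median GC content of 45.7%. Within every GC class the members lay above the other genes. Under 40% GC the medians were 0.67 for 15 members and 0.53 for other genes, at 45 to 50% they were 0.33 for 59 members and -0.06, and at 50% and over they were 0.02 for 37 members and -0.31. After the GC trend of each library was removed, the members had medians between 0.30 and 0.43 in the 5 classes and the other genes between 0.01 and 0.04. The size of the difference changed with the transcript whose GC content was used. With the GC content of the longest transcript, an alternative added after seeing the data, the medians of the members after removal of the trend were 0.21 to 0.29 and those of other genes 0.00 to 0.08. The count of members called was 37 higher and 5 lower under either removal, 17.8% and 2.4% of those tested, against 10.9% and 9.49% of all genes with the median GC content and 10.6% and 9.04% with the longest transcript. Of the ZNF genes of other chromosomes, 16.3% were called higher and 6.44% lower with the median GC content, and 11.8% and 7.35% with the longest transcript. Of the 51 members called without removal, 36 were called under each removal.

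**Figure D2:**
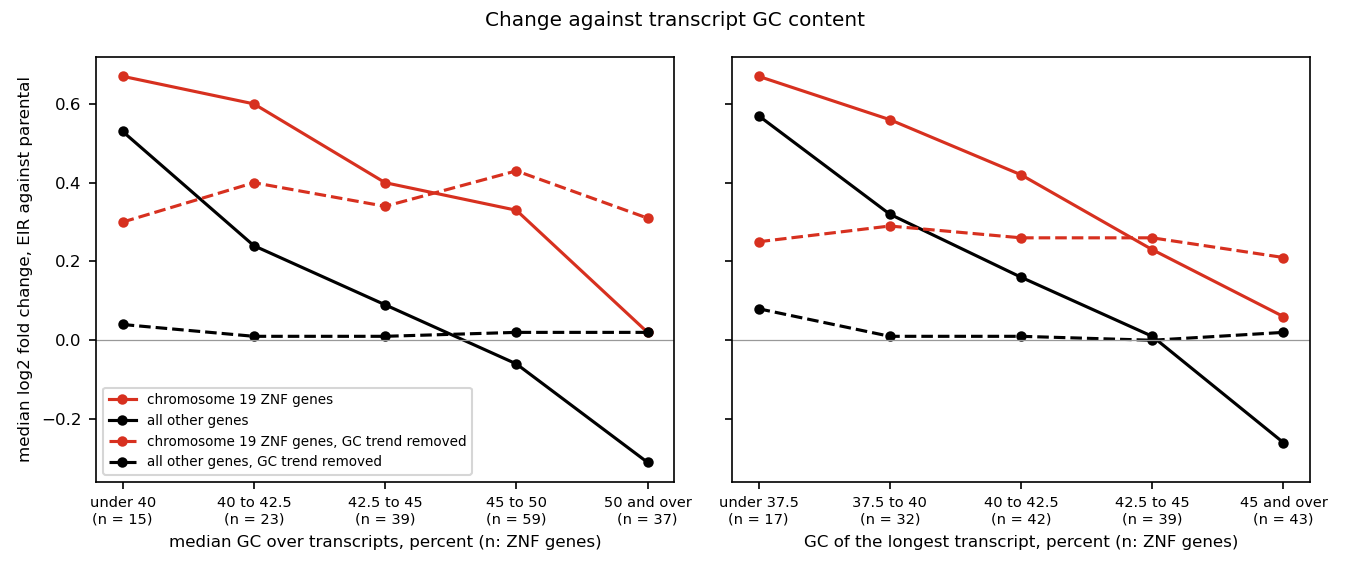
Median log2 fold change of EIR against parental cells (vertical axis) by class of transcript GC content in percent (horizontal axis), with the median over the transcripts of a gene on the left and its longest transcript on the right, for chromosome 19 ZNF genes (red) and all other genes (black), before (solid) and after (dashed) removal of the GC trend. Members lie above other genes in every class, from 0.67 against 0.53 in the lowest class of the left panel to 0.02 against -0.31 in the highest.

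The medians differed from cluster to cluster, which is a description with no test between clusters. Calls are counted out of all members of a cluster, including those too low in counts for an adjusted p. In clusters 4, 7 and 9, 11, 6 and 5 members averaged under 10 normalized counts. Over all genes tested, 12.4% were called higher and 13.2% lower. Cluster 4 (19.78 to 24.31 Mb), the pericentromeric cluster that holds ZNF43 and ZNF91, had the highest median log2 fold change in EIR cells, 0.65 over 24 members averaging at least 100 normalized counts, and 12 of its 37 members were called higher and none lower. Cluster 8 (52.07 to 54.08 Mb), where all 39 members carry KRAB, followed with a median of 0.59 over 32 members and 13 higher and 1 lower. In cluster 6 (36.67 to 38.31 Mb) the median was 0.49 over 19 members with 6 of 24 called higher, and in cluster 7 (44.03 to 45.58 Mb) it was 0.43 over 14 members with 6 of 22 called higher. No member of cluster 6 or 7 was called lower.

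The remaining clusters had lower medians. Cluster 9 (55.99 to 58.99 Mb), at the end of the long arm and the largest with 55 members, had a median of 0.21 over 37 members and 5 called higher. Cluster 2 (7.07 to 9.90 Mb) had a median of 0.13 over 12 members with 1 of 15 called higher. Cluster 3 (11.59 to 12.75 Mb) had a median of -0.01 over 20 members with 2 of 25 called higher and 2 lower. In clusters 1 (2.82 to 2.94 Mb) and 5 (35.17 to 35.46 Mb), each of 5 members, the medians were -0.28 and -0.60 over 5 and 3 members. Of the 9 members outside these clusters only ZNF507 was called in EIR cells.

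Coding genes that lie between the members had negative medians in clusters 7 and 8, -0.23 over 14 genes and -0.16 over 2. They had 0.03 over 3 genes in cluster 6, -0.49 over 20 in cluster 2 and -0.11 over 4 in cluster 3. In cluster 9 they had 0.22 over 15 genes, close to the 0.21 of the members. The 3 genes of cluster 6 were ZFP14, ZFP30 and ZFP82, which are zinc finger genes under other names. They are thus no contrast from outside the zinc finger genes. ZSCAN5A, ZSCAN18 and ZSCAN22, also zinc finger genes, were among those of cluster 9. Clusters 1, 4 and 5 held no other coding gene of that level. After removal of the GC trend by median GC content, these other genes had medians of 0.07 in cluster 7, -0.08 in cluster 8, 0.11 in cluster 6, -0.01 in cluster 2, 0.08 in cluster 3 and 0.25 in cluster 9. The order of the clusters changed with GC content. After removal of the trend by median GC content the medians of the members were 0.37 in cluster 4, 0.34 in cluster 6, 0.44 in cluster 7, 0.49 in cluster 8 and 0.40 in cluster 9, and by the longest transcript they were 0.22, 0.30, 0.45, 0.49 and 0.26. In cluster 4, with a median GC content of 41.2%, 5 of 12 calls passed after the first removal and 6 after the second, and in cluster 6, with 42.4%, 4 of 6 and then 2 of 6 did. After the first removal, 7 members of cluster 4 were called higher and 1 lower. In cluster 3 these were 0 and 2, against 10.9% and 9.49% of all genes. In cluster 7, 5 of 6 calls passed after each. All 14 calls of cluster 8 except 1 passed after each, and all 5 calls of cluster 9 did. Cluster 3 had 0.04 and -0.18.

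**Figure D3:**
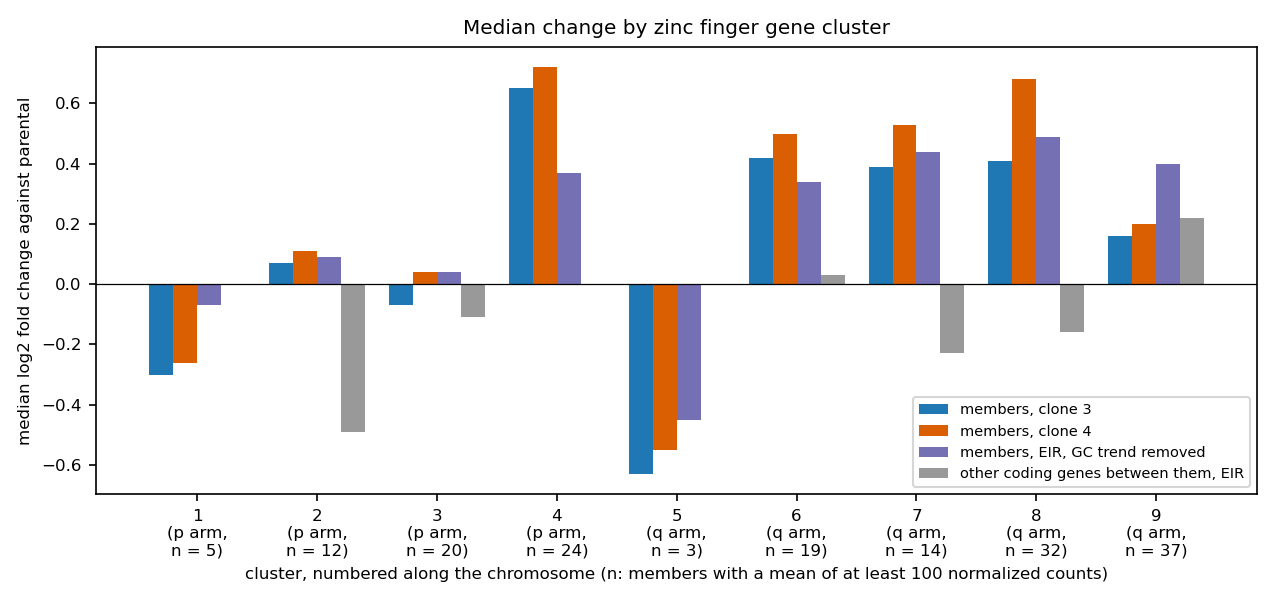
Median log2 fold change against parental cells (vertical axis) in the 9 clusters with at least 5 members (horizontal axis, in chromosomal order, with the number of members averaging at least 100 normalized counts), for members in EIR clone 3, in EIR clone 4 and in all EIR libraries after removal of the GC trend, and for the other coding genes between them in all EIR libraries. Members of clusters 4, 6, 7 and 8 had medians of 0.39 to 0.72 in both clones, and those of clusters 1 and 5 had negative medians. The other coding genes drawn for cluster 6 were zinc finger genes under other names.

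Per clone, clusters 4, 6, 7 and 8 had the highest medians before the GC trend was removed. After removal by median GC content, cluster 9 had 0.32 in clone 3 and 0.46 in clone 4. Clusters 4 and 6 then had 0.30 each in clone 3, and 0.39 and 0.36 in clone 4. In clone 3 against parental cells 39 members were called higher and 5 lower of 208 tested (18.8% and 2.4%, against 14.7% and 14.5% of all genes), and the median log2 fold change was 0.27. In clone 4 against parental cells 58 were higher and 7 lower (27.9% and 3.37%, against 14.7% and 18.3%), and the median was 0.39. Of the ZNF genes of other chromosomes, 19.1% were called higher and 8.82% lower in clone 3, and 19.2% and 13.8% in clone 4. Both clone 3 libraries lay above the parental library in 113 of 173 members (65.3%, against 42.2% of all genes) and below it in 44 (25.4%, against 49.6%). For clone 4 these were 123 (71.1%, against 38.5%) and 36 (20.8%, against 49.2%). The comparisons of the clones share the parental library. Their spread came from the treated and untreated library of each clone, so their p-values hold no variation between clones. edgeR called 49 members higher and 14 lower in clone 3 (against 9.25% and 10.1% of all genes) and 65 higher and 15 lower in clone 4 (against 9.1% and 12.0% of all genes). The counts changed when libraries were left out, and no share of all genes is given for those fits. Without treated clone 3, 10 members were called in clone 3, and 14 without untreated clone 3. In clone 4, 39 were called without treated clone 3, 41 without untreated clone 3, 43 without untreated clone 4 and 54 without treated clone 4. Cluster 4 had medians of 0.65 in clone 3 and 0.72 in clone 4, with 10 and 14 members called higher. Cluster 8 had 0.41 and 0.68, with 11 and 18 called higher. With the GC trend by median GC content removed, clone 3 had 31 members higher and 7 lower (14.9% and 3.37%, against 14.2% and 12.1% of all genes) and clone 4 had 57 and 7 (27.4% and 3.37%, against 13.9% and 14.3%). By the longest transcript, clone 3 had 25 higher and 7 lower (12.0% and 3.37%, against 14.1% and 12.0%) with a median of 0.14. Clone 4 had 46 and 10 (22.1% and 4.81%, against 13.3% and 13.8%) with a median of 0.28. With the trend removed by median GC content, ZNF genes of other chromosomes had 19.1% higher and 7.35% lower in clone 3. In clone 4 they had 20.8% and 8.91%. By the longest transcript they had 13.2% and 7.35% in clone 3 and 17.2% and 9.31% in clone 4. In clone 3 the share of members called higher thus came near that of all genes and lay below that of ZNF genes elsewhere. In clone 4 it stayed above both.

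**Figure D4:**
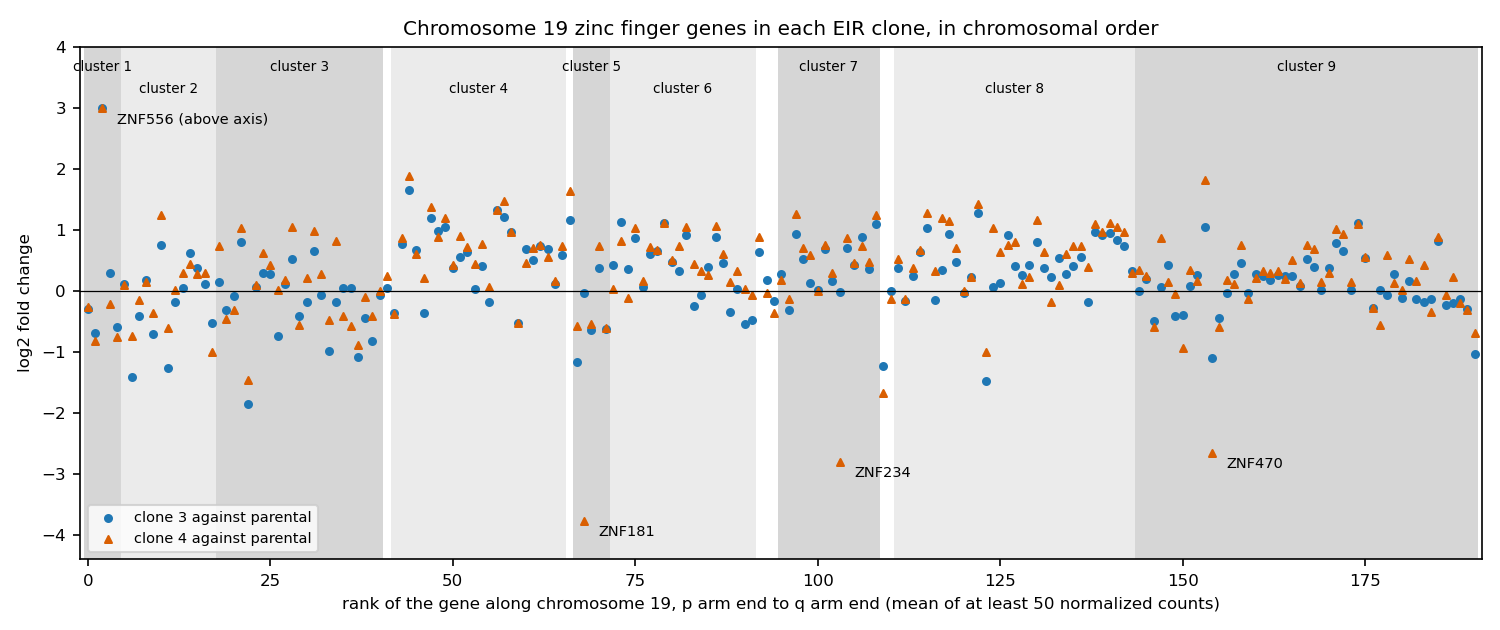
Log2 fold change against parental cells (vertical axis) of the 191 members averaging at least 50 normalized counts, by rank along chromosome 19 (horizontal axis), in EIR clone 3 (circles) and clone 4 (triangles), with clusters shaded. ZNF556, with values of 7.75 and 6.91, is drawn at 3. Most points of clusters 4, 6, 7 and 8 lie above 0, and ZNF181, ZNF234 and ZNF470 lie below -2 in clone 4 alone.

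Only ZNF556 met the rule for a switched gene, that is 3 or fewer counts in one state and at least 30 normalized counts in both libraries of a clone in the other. ZNF556 encodes a KRAB zinc finger protein with 9 fingers (ENSG00000172000, hg19 chr19:2867333-2883443, plus strand, cluster 1). It had 1 count in the parental library, 249 and 205 in untreated and treated clone 3, and 126 and 107 in untreated and treated clone 4. All 4 EIR libraries stood far above the parental library, and the clone 3 libraries stood above those of clone 4. Scaled for depth, its level in EIR cells was 170.0 times that in parental cells, with a 95% exact counting interval of 30.4 to 6710 that covers counting error only (adjusted p = 2.67e-05 in DESeq2). The ratio was 215 (38.5 to 8530) in clone 3 and 120.0 (21.3 to 4760) in clone 4. The difference between clones was -0.85 ± 0.38 (log2 fold change of clone 4 against clone 3 ± SE, adjusted p = 0.168), and edgeR called it (adjusted p = 0.041). Of the 12396 genes with 3 or fewer counts in the parental library, 162 met the rule as switched on in clone 3 and 76 in clone 4. Of the 13415 genes with at least 30 normalized counts there, 41 and 120 met it as switched off.

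The other genes of cluster 1, all KRAB zinc finger genes within 100 kb of ZNF556, were not called higher. ZNF555, its upstream neighbour, had 635.5 normalized counts in parental cells and 374.9 and 412.1 in clone 3 and 400.8 and 315.3 in clone 4, and fell in EIR cells by 0.76 on the log2 scale (SE 0.26, adjusted p = 0.0165), a call that did not pass without either clone 3 library or untreated clone 4 (adjusted p up to 0.204 over all alternatives). ZNF554, ZNF57 and ZNF77 had log2 fold changes of -0.28, 0.06 and -0.67 and were not called (adjusted p = 0.441, 0.928 and 0.0503, DESeq2). Of the other coding genes in that window, SGTA and THOP1 were not called, and TLE6, a Groucho family corepressor gene, fell by 1.25 (adjusted p = 0.0219). Of the 196 members with at least 30 normalized counts in the parental library, 0 were switched off in either clone. Switching off was rare over all genes as well, as given above. No member was on in one clone and off in the other. In the parental library 25 members had 3 or fewer counts, and 24 of them stayed under 30 normalized counts in every EIR library.

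After ZNF556, 4 members had the largest rises in EIR cells. Of these, ZNF682, ZNF43 and ZNF480 encode KRAB zinc finger proteins, and ZNF507 encodes a zinc finger protein without KRAB. ZNF682 (ENSG00000197124, hg19 chr19:20107867-20150314, minus strand, cluster 4, 10 fingers) had 53.4 normalized counts in parental cells, 162.9 and 173.9 in clone 3 and 208.5 and 187.3 in clone 4. Its log2 fold change was 1.78 ± 0.35 (SE, adjusted p = 1.05e-05). ZNF43 (cluster 4, 19 fingers) had 892.4 in parental cells, 1789.6 and 2342.2 in clone 3 and 2855.4 and 2118.0 in clone 4, a log2 fold change of 1.35 ± 0.30 (adjusted p = 1.15e-04), and 0.89 after removal of the GC trend by the longest transcript (adjusted p = 0.00548). Neither gene overlapped the parental level in any EIR library. ZNF480 (cluster 8, 10 fingers) had 729.2 in parental cells, 1630.3 and 1901.4 in clone 3 and 2268.5 and 1655.7 in clone 4, a log2 fold change of 1.35 ± 0.27 (adjusted p = 8.17e-06). Its exons overlap those of an unnamed gene on the opposite strand. ZNF507, outside the clusters at 32.84 Mb, had 473.4 in parental cells, 1107.3 and 1025.8 in clone 3 and 1118.0 and 1805.9 in clone 4. Treated clone 4 stood above the other 3 EIR libraries, and the log2 fold change was 1.42 ± 0.38 (adjusted p = 0.00171), which did not pass in edgeR (adjusted p = 0.0602) or after removal of the GC trend by median GC content (adjusted p = 0.0571), and passed by the longest transcript (1.15, adjusted p = 0.031).

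In clone 3, ZNF100 joined the largest rises. It is a KRAB gene of cluster 4 whose exons overlap CCNYL6 on the opposite strand. It had 459.3 normalized counts in parental cells, 1037.8 and 1256.1 in clone 3 and 1271.6 and 1019.9 in clone 4, and its log2 fold change was 1.32 ± 0.24 in each clone (adjusted p = 1.06e-06 in clone 3). After removal of the GC trend by the longest transcript its value in clone 3 was 0.74 (adjusted p = 0.00325). In clone 4, ZNF471 joined them. This KRAB gene of cluster 9 is known to be methylated and silent in several tumour types. It had 57.4 in parental cells, 133.3 and 103.8 in clone 3 and 127.2 and 279.3 in clone 4, a log2 fold change of 1.82 ± 0.54 in clone 4 (adjusted p = 0.00399). Without treated clone 4 the adjusted p was 0.237. In clone 3 its value was 1.05 ± 0.55 (adjusted p = 0.145).

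The members called higher by cluster were as follows. In cluster 4 they were ZNF14, ZNF682, ZNF66, ZNF85, ZNF430, ZNF431, ZNF708, ZNF100, ZNF43, ZNF492, ZNF91 and ZNF254, with log2 fold changes of 0.61 to 1.78. In cluster 6 they were ZNF146, ZNF260, ZNF567, ZNF850, ZNF420 and ZNF569, at 0.67 to 1.12. ZNF420 is known as a repressor of p53-driven apoptosis genes. In cluster 7 they were ZNF283, ZNF45, ZNF224, ZNF226, ZNF235 and ZNF180, at 0.62 to 1.17. In cluster 8 they were ZNF613, ZNF350, ZNF432, ZNF841, ZNF480, ZNF701, ZNF28, ZNF347, ZNF845, ZNF525, ZNF765, ZNF761 and ZNF813, at 0.59 to 1.35. ZNF350 encodes ZBRK1, a corepressor partner of BRCA1. In cluster 9 they were ZNF530, ZNF134, ZNF551, ZNF776 and ZNF544, at 0.55 to 1.11. ZNF551 varied little among EIR libraries, with 448.2 normalized counts in parental cells, 994.3 and 941.8 in clone 3 and 979.6 and 946.9 in clone 4 (1.11 ± 0.17, adjusted p = 5.84e-09).

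edgeR's quasi-likelihood test called 14 members higher and 0 lower in EIR cells (5.93% of 236, against 2.13% and 3.6% of all genes). Of the ZNF genes of other chromosomes it called 5.48% higher and 2.28% lower. An unadjusted p under 0.05 was reached by 66 members in edgeR (28.0%, against 20.0% of all genes) and by 74 in DESeq2 (31.4%, against 19.5%). The 14 were ZNF556, ZNF682, ZNF430, ZNF100, ZNF43, ZNF850, ZNF180, ZNF480, ZNF845, ZNF525, ZNF765, ZNF761, ZNF551 and ZNF544, and all were among the 51 called by DESeq2. Leaving out the 143 members whose exons overlap another annotated gene left 24 higher and 1 lower in DESeq2. Fewer members can only give fewer calls, so this count is not a test of the result. The library kit keeps strand, and whether counting used it is not given in the sources used here, so reads of a member and an overlapping gene may not have been separated.

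Of the 4 members lower in EIR cells, ZNF491 and ZNF709 lie in cluster 3, ZNF610 in cluster 8, and ZNF555 was described above. ZNF491, a gene without a KRAB box, had 140.0 normalized counts in parental cells, 32.4 and 45.5 in clone 3 and 46.8 and 55.0 in clone 4, and fell by 1.64 on the log2 scale (SE 0.49, adjusted p = 0.00551). Its exons overlap a gene on the opposite strand. ZNF709 had 432.1 in parental cells, 208.3 and 199.6 in clone 3 and 280.8 and 184.1 in clone 4, and fell by 0.99 (SE 0.34, adjusted p = 0.0197). Its exons overlap those of other genes on its own strand, and the call did not pass without either clone 3 library or treated clone 4 (adjusted p up to 0.129 over all alternatives). ZNF610, a KRAB gene, had 131.9 in parental cells, 52.8 and 41.5 in clone 3 and 67.1 and 63.5 in clone 4, and fell by 1.23 (SE 0.47, adjusted p = 0.038), which did not pass when any 1 of the EIR libraries was left out (adjusted p up to 0.307 over all alternatives). All 4 EIR libraries lay below the parental library in each, and edgeR called none of them (adjusted p from 0.0643 for ZNF491 to 0.141 for ZNF610). In clone 3, ZNF358 (cluster 2, without KRAB) had 141.6 and 150.2 normalized counts against 387.8 in parental cells, and fell by 1.41 (SE 0.35, adjusted p = 4.69e-04, and 0.0566 without untreated clone 3). It fell by 0.91 after removal of the GC trend by the longest transcript (adjusted p = 0.0381). ZNF699 (cluster 2) had 382.4 and 392.3 against 629.5, and fell by 0.70 (SE 0.28, adjusted p = 0.0446), which did not pass under total count scaling or when any 1 of the EIR libraries was left out (adjusted p up to 0.337). In clone 3, ZNF491, ZNF610 and ZNF709 had log2 fold changes of -1.85, -1.48 and -1.08 (adjusted p = 0.0147, 0.0425 and 0.0135), which did not pass without either clone 3 library. ZNF610 also did not pass without either clone 4 library or under total count scaling.

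The clones differed from each other in 5 members. Against clone 3, clone 4 had 3 members higher and 2 lower of 212 tested (1.42% and 0.943%, against 3.3% and 6.52% of all genes), and 14 members had an unadjusted p under 0.05 (5.93%, against 10.7%). edgeR called 4 higher and 4 lower (against 2.01% and 4.26% of all genes). With the GC trend removed by either measure DESeq2 called 4 higher and 3 lower (against 4.05% and 6.84% of all genes by the median, 4.03% and 6.76% by the longest transcript). All 5 members were called in each. Without the treatment covariate DESeq2 called 6 higher and 4 lower, and no share of all genes is given for that fit. The fits between clones with a library left out also had no treatment covariate. They left 1 library in a clone, so their counts of calls are not set beside these. ZNF181 (ENSG00000197841, hg19 chr19:35225060-35236283, cluster 5) and ZNF234 (ENSG00000263002, hg19 chr19:44645707-44664466, cluster 7), both KRAB zinc finger genes, carried the largest differences. ZNF181 had 141.0 normalized counts in parental cells, 132.4 and 143.3 in clone 3, and 14.2 and 6.35 in clone 4. The clone 3 and parental libraries lay close together and both clone 4 libraries were far below them. The log2 fold change of clone 4 against clone 3 was -3.80 ± 0.64 (SE, adjusted p = 1.32e-07). ZNF234 had 170.2 in parental cells, 153.7 and 181.8 in clone 3, and 23.4 and 25.4 in clone 4, a difference of -2.78 ± 0.51 (adjusted p = 2.03e-06). Both stayed above 3 counts in clone 4, so neither met the rule for switched off. Both were called in edgeR and without any 1 library.

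The zinc finger genes next to them were not called between clones. Within 100 kb of ZNF181, ZNF302 and ZNF599, both KRAB zinc finger genes, had differences between clones of 0.62 and 0.09 (adjusted p = 0.74 and 0.979, DESeq2). ZNF302 and ZNF599 were the only coding genes there. Around ZNF234, its tandem relatives ZNF224, ZNF225, ZNF226, ZNF227 and ZNF235 had differences of 0.06, 0.13, 0.16, 0.03 and -0.16 and were not called (adjusted p from 0.842 to 0.986), and ZNF233, at 30 counts in the parental library and between 3 and 8 in the others, had a difference of -0.76 that was too low in counts for an adjusted p. ZNF224, ZNF226 and ZNF235 were higher in EIR cells by 0.72, 0.79 and 0.81. ZNF224 encodes a KRAB repressor that binds the WT1 protein. ZNF470 (cluster 9, KRAB) had 128.9 normalized counts in parental cells, 53.7 and 66.2 in clone 3, and 7.12 and 33.9 in clone 4. It fell in clone 4 by 2.66 (SE 0.80, adjusted p = 0.00438), but without untreated clone 4 the adjusted p was 0.0684, and the difference between clones was not called (-1.87 ± 0.80, adjusted p = 0.146). ZNF114, a KRAB gene between clusters 7 and 8, fell in clone 4 by 1.67 (SE 0.55, adjusted p = 0.00944) and did not pass without untreated clone 4 (adjusted p = 0.123). ZNF846 (cluster 2) had 278.0 normalized counts in parental cells and 143.4 and 134.4 in clone 4, and fell by 1.00 (SE 0.39, adjusted p = 0.035), which did not pass after removal of the GC trend by median GC content (adjusted p = 0.0582), under total count scaling or when any 1 of the EIR libraries was left out (adjusted p up to 0.171). It passed after removal by the longest transcript (adjusted p = 0.0289).

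ZNF614, ZNF528 and ZNF442, all with KRAB, were higher in clone 4. ZNF614 (cluster 8) had 605.3 normalized counts in parental cells, 795.3 and 749.1 in clone 3 and 1562.5 and 1212.4 in clone 4, a difference of 0.83 ± 0.21 (adjusted p = 0.00152). ZNF528 (cluster 8) had 215.5 in parental cells, 230.5 and 222.4 in clone 3 and 435.4 and 446.5 in clone 4, a difference of 0.95 ± 0.29 (adjusted p = 0.0138). ZNF442 (cluster 3) had 241.7 in parental cells, 214.8 and 212.5 in clone 3 and 438.4 and 406.3 in clone 4, a difference of 0.98 ± 0.30 (adjusted p = 0.0132). The clone 3 and parental libraries of ZNF528 and ZNF442 lay together and both clone 4 libraries above them. In the fits without either clone 3 library, which also had no treatment covariate, these 3 calls did not pass. The falls of ZNF181 and ZNF234 did. Over all alternatives the differences of ZNF614, ZNF528 and ZNF442 were 0.64 to 1.01, 0.91 to 0.98 and 0.91 to 1.03. Over the 173 members the median difference between clones was 0.12, and both clone 4 libraries lay above both clone 3 libraries in 71 of them (41.0%, against 27.8% of all genes) and below in 26 (15.0%, against 35.3%).

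**Figure D5:**
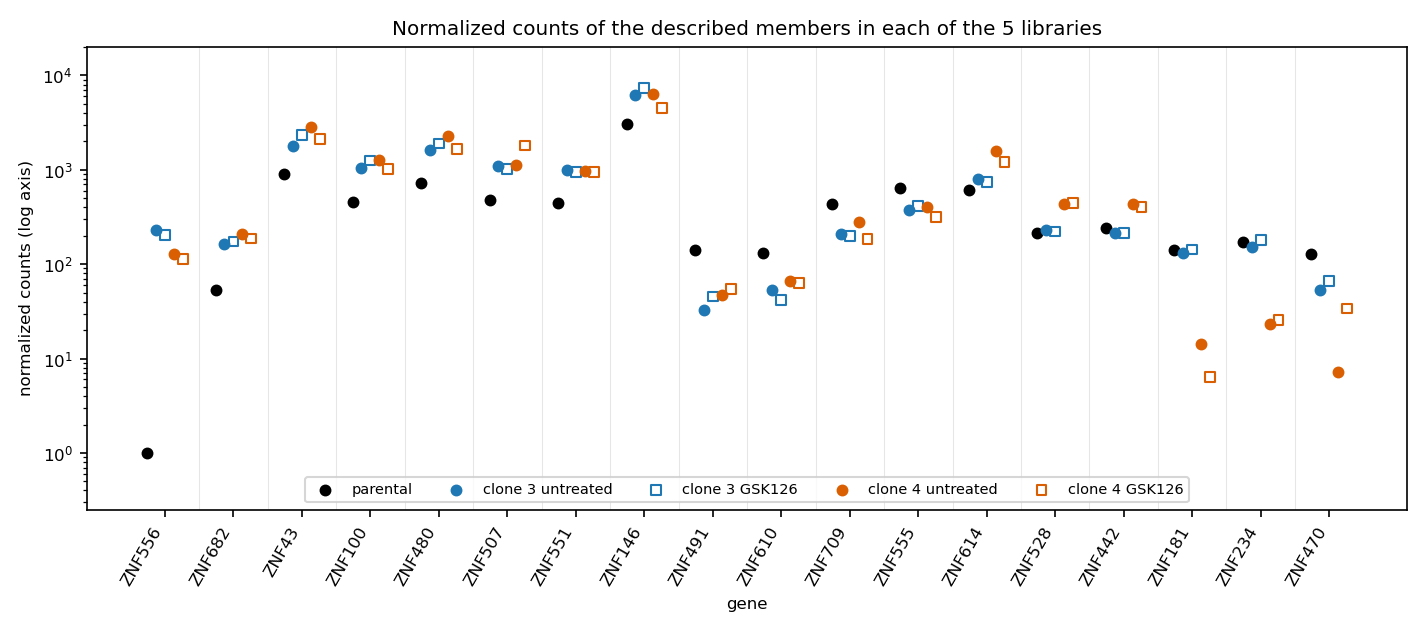
Normalized counts (vertical axis, logarithmic) of 18 members (horizontal axis) in the parental library (black), EIR clone 3 (blue) and EIR clone 4 (orange), untreated (filled circles) and GSK126-treated (open squares), 1 point per library. ZNF556 rises from 1.01 to between 113.2 and 230.5, and ZNF181 and ZNF234 are low in both clone 4 libraries only.

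In GSK126-treated against untreated EIR cells no member passed the threshold. DESeq2 called 0 of 236 members and 0.00335% of all genes (1 gene, lower), and 0 members had an unadjusted p under 0.05. edgeR called 0 members, with 1 at an unadjusted p under 0.05. With the clone as a replicate block, DESeq2 called 0 members, with 2 at an unadjusted p under 0.05, and 3 genes higher (0.0101%) and 1 lower of all genes. Treated over untreated, the median log2 ratio of the 173 members was 0.01 in clone 3, where 0 members reached a 2-fold difference, and -0.18 in clone 4, where 2 did. Over all genes at that level the medians were 0.03 and -0.03, and 0.268% and 2.28% reached a 2-fold difference. Untreated clone 4 was the library with the highest median. The median log2 ratio to parental cells was 0.45 there, against 0.27 in treated clone 4 and 0.25 and 0.26 in untreated and treated clone 3. Under total count scaling these values were 0.45, 0.42, 0.33 and 0.31, so that untreated and treated clone 4 lay close together. Without that library the median of the members in EIR cells was 0.28.

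The members studied as binders of transposable elements were ZNF91, ZNF93, ZNF417, ZNF587, ZNF611 and ZNF808. Of the 5 that DESeq2 tested, 1 was called higher in EIR cells, against 12.4% of all genes. ZNF91, which binds SVA retrotransposons, had 1237.8 normalized counts in parental cells, 1563.7 and 1933.0 in clone 3 and 2151.5 and 1890.6 in clone 4, a log2 fold change of 0.61 ± 0.24 (adjusted p = 0.0463). It did not pass after removal of the GC trend by median GC content (0.23, adjusted p = 0.492). ZNF93, which binds LINE-1 elements, had 3 counts in the parental library and between 3 and 10 in each EIR library, too few to compare. ZNF417, ZNF587, ZNF611 and ZNF808 had values of -0.05, 0.21, 0.19 and 0.41 and were not called. The median of the 5 binders averaging at least 100 normalized counts was 0.21, against 0.33 for all members at that level. ZNF274, which directs histone methylation to zinc finger gene exons, had 645.6 normalized counts in the parental library and between 453.9 and 618.4 in the EIR libraries (-0.23 ± 0.26, adjusted p = 0.556).

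Of 9 members known to be methylated and silent in tumours, 8 were measured. DESeq2 gave an adjusted p to 5 of them, and neither it nor edgeR called any in EIR cells. Over all genes DESeq2 called 12.4% higher and 13.2% lower, so 0 calls among 5 say little. ZNF471 alone had an unadjusted p under 0.05 in DESeq2. ZNF331 had 614 counts in the parental library and between 660 and 824 in EIR cells, and ZNF471 was described above. The others were low. ZNF382 had 60 counts in the parental library and between 17 and 43 in EIR cells, and ZNF132, ZNF154, ZNF667, ZNF671 and ZNF677 had at most 24 counts in any library. UHRF1 was not analysed here. Among 15 measured partners of KRAB zinc finger proteins, 2 were higher in EIR cells and 1 lower, against 12.4% and 13.2% of all genes. These counts are near those shares. The median was 0.14. TRIM28, the corepressor that KRAB binds, had 5857 counts in the parental library and between 6672 and 7317 in EIR cells (0.25 ± 0.20, adjusted p = 0.393), with 0.66 and an adjusted p of 0.0227 after removal of the GC trend by median GC content. SETDB1, the methyltransferase it recruits, had a value of -0.47 ± 0.21 (adjusted p = 0.0883). The 2 higher genes were SMARCAD1, a chromatin remodeller that binds TRIM28 (1.76 ± 0.22, adjusted p = 6.34e-14), and ATRX, a heterochromatin remodeller (1.28 ± 0.23, adjusted p = 4.81e-07). The lower gene was CHD3, a remodeller of the NuRD complex that TRIM28 also recruits (-1.15 ± 0.37, adjusted p = 0.0111), which did not pass after the same removal (adjusted p = 0.122).

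Zinc finger genes of the chromosome under other names were measured in 14 of 17 cases. DESeq2 tested 8 in EIR cells and called 1 higher, against 12.4% of all genes. It was ZSCAN5A, which rose by a log2 fold change of 0.91 ± 0.36 (adjusted p = 0.0468 in DESeq2 and 0.219 in edgeR). The list had a median of 0.03 over 7 genes. ZSCAN18, in the span of cluster 9, had 611 counts in parental cells, 326 and 303 in clone 3, and 3 and 1 in clone 4, a difference between clones that was called (adjusted p = 3.49e-16). Members with KRAB and without it had medians of 0.33 over 155 genes and 0.22 over 17, 0.34 each after removal of the GC trend by median GC content, and 0.23 and 0.47 by the longest transcript. Members with up to 9 fingers, 10 to 15 and 16 or more had medians of 0.21, 0.36 and 0.41, and 0.15, 0.35 and 0.36 after removal. These classes were described without a test.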

How the data were processed

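Total RNA of 5 TOV21G libraries was extracted with Trizol and made into libraries with a strand-keeping kit. The authors aligned reads to hg19 with Bowtie2 and estimated counts per gene with RSEM. The estimated counts were deposited as whole numbers, each library on its own. RSEM divides reads among near-identical genes, so values of close paralogs are uncertain. Whether counting used strand is not given in the sources used here. All fits used the whole table of 30476 identifiers, of which 29203 matched GENCODE 44 lifted to GRCh37, and members were then read from them. The members, gene lists and comparisons were chosen with earlier results of these data known.

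Changes were tested with the two-sided Wald test of DESeq2 1.42.0 in R 4.3.3 with median-of-ratios size factors and Benjamini-Hochberg adjustment over all genes, at an adjusted p under 0.05. EIR cells (4 libraries) were compared with parental cells (1 library). Each clone was compared with parental cells in a fit of 3 groups, clone 4 with clone 3 with treatment as a covariate, and GSK126-treated with untreated EIR libraries without a covariate. Log2 ratios of single libraries used normalized counts plus 0.5. Medians used genes averaging at least 100 normalized counts over the 5 libraries. Named were, per comparison, the 5 largest rises and 5 largest falls among called members averaging at least 50 normalized counts, and every switched member. Members printed outside that rule, such as ZNF146 and ZNF551, were chosen after their values were seen. edgeR 4.0.16 (quasi-likelihood test), other scalings, removal of the GC content trend by loess, left-out libraries and summed libraries were alternatives. KRAB boxes were found with a profile in pyhmmer 0.12.3 (E-value under 1e-05) and C2H2 fingers by pattern. The fits were checked on simulated data. Totals of 25479238 to 30764963 counts set the precision, and intervals cover counting error only. Treated and untreated libraries of a clone share its number and are the same clone, so the clone number pairs them. Their deviations from the treatment means correlated at 0.862 over 11564 genes.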

Additional observations from a re-analysis of the deposited data

Results flagged for a closer look

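In 3 cases 1 of the 4 EIR libraries stood apart, with a gap to its nearest neighbour that took more of the whole range than Dixon's 95% critical value for 4 samples. ZNF471 had a gap of 0.832 of its range and ZNF507 one of 0.882, both from treated clone 4. The median log2 ratio of the members to parental cells had a gap of 0.92, from untreated clone 4. That gap depended on the scaling. Under total count scaling the medians were 0.45 and 0.42 in untreated and treated clone 4 and 0.33 and 0.31 in clone 3, and untreated clone 4 did not stand apart. Of the named members 21 were looked at in this way, and chance gives about 1 such case in 20 groups.

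The clones differed from each other in 5 named members by DESeq2 (clone 4 against clone 3, log2 fold change). ZNF181 had -3.80 (adjusted p = 1.32e-07) and ZNF234 had -2.78 (adjusted p = 2.03e-06). ZNF442 had 0.98 (adjusted p = 0.0132), ZNF528 had 0.95 (adjusted p = 0.0138) and ZNF614 had 0.83 (adjusted p = 0.00152). The median log2 ratio of treated over untreated was 0.01 in clone 3 and -0.18 in clone 4, a difference of -0.19 that was not tested.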

How the results depend on the processing

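Against 51 members called in EIR cells, edgeR called 14 and a fit on libraries summed by clone 18, while leaving out 1 library gave 32 to 46. The members without overlapping exons held 25 of the 51 calls. Reading fewer members from the same fit can only lower a count, here and per clone below. In clone 3, 44 were called, 19 without overlapping exons and 10 to 42 with 1 library left out. In clone 4, 65 were called, 31 without overlapping exons and 39 to 54 with 1 library left out. Between clones 5 were called, against 8 in edgeR, 10 without the treatment covariate, 14 in edgeR without it (added after seeing the data) and 2 to 13 with 1 library left out. Leaving out a library reduced the number of samples, and the other causes were not tested. With the clone as a replicate block, DESeq2 called 0 members under GSK126, as it did without it, and edgeR with the block, added after seeing the data, called 0 with 5 at an unadjusted p under 0.05. The median log2 fold change of members in EIR cells, 0.33, ranged from 0.25 to 0.40 over the alternatives. Its distance to all genes, 0.39, was 0.32 after removal of the GC trend by median GC content and 0.23 by the longest transcript. No called value of a named member changed sign, and of the values of named members under the alternatives 305 stayed on their side of the threshold and 54 no longer passed it. The single parental library limits every comparison with parental cells, since its own spread was not measured, and RSEM's division of reads among near-identical zinc finger genes limits values of single members.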
